A study of Mus musculus with 2 samples.

Results

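The 35 genes described here carry glucose through glycolysis to lactate or belong to the cell's response to low oxygen. They were taken by symbol from the 27998 genes of the count tables, and each symbol was found once. Of the 35, 25 act in glucose uptake, glycolysis, lactate handling or the control of pyruvate entry to mitochondria, and 10 are hypoxia genes of other functions. The counts come from droplet single-cell RNA sequencing of myeloid cells from the fluid of a malignant pleural effusion, a build-up of fluid in the chest caused by a tumour. Mice had received 150000 LLC cells (mouse Lewis lung carcinoma) in 100 µl into the pleural cavity, and the fluid was drawn after 10 days. Living cells positive for CD45, a leukocyte marker, and CD11b, a myeloid marker, were sorted. There is 1 group with 2 libraries and no tumour-free sample, so the comparisons lie between cell classes of the effusion. Age, strain and the number of mice are not given in the labels used here.

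Glycolysis splits glucose into pyruvate in the cytosol. Glucose transporters and hexokinases bring the sugar in and trap it, phosphofructokinase commits it, and the later enzymes yield ATP, pyruvate and, through lactate dehydrogenase, lactate, which leaves through monocarboxylate transporters. When oxygen is low, the prolyl hydroxylases that mark HIF-1α for destruction slow down, and HIF, bound to ARNT, raises many of these enzymes together with genes for mitophagy, such as Bnip3, and its own hydroxylase Egln3. Neutrophils are known to depend on glycolysis and to hold few mitochondria, while activated macrophages and dendritic cells raise glycolysis when stimulated.

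HIF binds the short core ACGTG or GCGTG. A region of 300 bases at a transcript start listed by RefSeq (GRCm38.p6), most of it upstream of that start, was available for 31 of the 35 genes. It was not available for Slc2a3, Bnip3l, Ero1l and Ndrg1. Both cores were searched on both strands, so that the palindrome CACGTG counts once on each strand. At least 1 core was found in the first listed region of 26 of the 31 genes (83.9%), and in 43.8% of the first listed regions of 27025 genes. ACGTG alone was found in 61.3% of the genes described here and in 19.7% of all genes, and GCGTG alone in 58.1% and 32.5%. The median GC content was 64.7% in the regions of these genes and 52.7% in all regions. A match is a string of letters and no measured binding site.

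The regions of 6 genes are shown because the results below turn on their genes. Slc2a1, Egln3, Ankrd37 and Bnip3 were higher in neutrophils than in C1q macrophages, Ldha is an abundant enzyme that was not, and Tpi1 is a glycolytic enzyme with no core in its region. Each is read 5′ to 3′ on the strand of its gene, and capitals mark the cores, on either strand.
Slc2a1 (chr4:119108495-119108794, plus strand): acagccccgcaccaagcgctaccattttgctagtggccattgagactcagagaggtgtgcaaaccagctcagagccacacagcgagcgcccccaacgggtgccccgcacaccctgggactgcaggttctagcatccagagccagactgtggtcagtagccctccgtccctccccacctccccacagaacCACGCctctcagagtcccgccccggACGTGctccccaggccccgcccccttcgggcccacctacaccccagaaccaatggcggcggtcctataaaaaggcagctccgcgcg
Egln3 (chr12:54203825-54204124, minus strand): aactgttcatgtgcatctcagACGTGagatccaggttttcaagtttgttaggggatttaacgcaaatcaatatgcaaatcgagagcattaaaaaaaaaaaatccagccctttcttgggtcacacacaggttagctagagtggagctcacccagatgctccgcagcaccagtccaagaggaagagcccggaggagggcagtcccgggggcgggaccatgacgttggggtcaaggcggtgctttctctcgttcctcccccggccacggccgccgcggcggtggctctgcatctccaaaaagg
Ankrd37 (chr8:45999801-46000100, minus strand): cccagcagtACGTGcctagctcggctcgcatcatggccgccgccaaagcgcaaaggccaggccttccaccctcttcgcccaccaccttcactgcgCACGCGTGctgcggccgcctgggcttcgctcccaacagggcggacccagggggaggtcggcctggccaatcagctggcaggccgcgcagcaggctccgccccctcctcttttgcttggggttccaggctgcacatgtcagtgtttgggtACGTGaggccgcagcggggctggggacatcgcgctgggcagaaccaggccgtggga
Bnip3 (chr7:138909457-138909756, minus strand): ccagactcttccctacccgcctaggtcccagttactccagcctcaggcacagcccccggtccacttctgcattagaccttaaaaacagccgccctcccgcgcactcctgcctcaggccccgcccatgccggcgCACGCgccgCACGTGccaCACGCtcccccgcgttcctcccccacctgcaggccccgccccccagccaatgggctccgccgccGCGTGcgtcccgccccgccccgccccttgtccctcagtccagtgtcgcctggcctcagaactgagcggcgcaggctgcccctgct
Ldha (chr7:46845554-46845853, plus strand): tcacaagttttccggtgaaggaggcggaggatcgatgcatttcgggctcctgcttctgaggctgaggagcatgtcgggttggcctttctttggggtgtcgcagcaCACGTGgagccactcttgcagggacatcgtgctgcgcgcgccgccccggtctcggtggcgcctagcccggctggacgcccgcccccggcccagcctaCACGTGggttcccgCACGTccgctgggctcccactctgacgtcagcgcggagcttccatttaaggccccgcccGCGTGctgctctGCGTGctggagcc
Tpi1 (chr6:124814109-124814408, minus strand): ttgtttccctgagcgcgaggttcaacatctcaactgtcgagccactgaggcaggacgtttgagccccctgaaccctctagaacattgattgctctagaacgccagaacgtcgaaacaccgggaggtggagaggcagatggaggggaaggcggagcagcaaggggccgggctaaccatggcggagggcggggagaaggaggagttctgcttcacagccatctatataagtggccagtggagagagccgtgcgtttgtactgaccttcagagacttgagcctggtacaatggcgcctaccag
Capitals that read CACGT or CACGC are cores on the other strand. The Ldha region held 5 matches of ACGTG and 2 of GCGTG, and the Bnip3 region 2 and 3.

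Both libraries were divided into classes by the summed share of marker genes, none of which is among the 35. The class names stand for these gates. Neutrophils (15 markers, among them S100a8, S100a9 and Retnlg) numbered 84 and 1553 cells in libraries 1 and 2, monocytes (Ly6c2, Chil3, Vcan) 121 and 294, dendritic cells (Cd209a, H2-DMb2, Flt3) 126 and 31, resident macrophages (Gata6, Alox15, Prg4) 27 and 22, and intermediate cells, with monocyte markers and macrophage markers other than C1q, 281 and 207. C1q macrophages (C1qa, C1qb, C1qc) numbered 292 and 426 and are the class that most others are set against. A further 175 and 249 cells passed no gate. The gates were set on these same lists, so the levels below describe the classes and are no separate support for their names. The neutrophil list took 18.8% and 14.4% of all UMIs (molecules counted) in neutrophils, which is 188248 and 143991 CPM (UMIs per 1000000 UMIs), and at most 3749 CPM in any other class. The resident list stood at 16385 and 16874 CPM in resident macrophages and at 177 and 108 CPM in C1q macrophages. The dendritic list stood at 3060 and 2897 CPM in dendritic cells and at most 79.5 CPM elsewhere. The monocyte list was not confined to monocytes, where it stood at 11331 and 13702 CPM. It reached 7867 and 13271 CPM in intermediate cells, 4606 and 9819 CPM in C1q macrophages and 4502 and 10452 CPM in resident macrophages. Neutrophils held 5927 and 6567 CPM of it. Dendritic cells held least in both libraries, at 2463 and 3909 CPM, in library 2 more than of their own list. When cells were clustered instead, 75 and 1532 neutrophils, 26 and 22 resident macrophages and 233 and 372 C1q macrophages fell into clusters of their own class. The same held for 36 and 175 monocytes, 119 and 0 dendritic cells and 58 and 0 intermediate cells, so these gates are the less certain ones.

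The libraries differ in ways that touch the results. Library 1 held 1141 barcodes with 11543829 UMIs (median 9894, lowest 1999) and library 2 held 2908 with 20322996 (median 1954.5, lowest 500), and 4 barcode sequences occurred in both. Neutrophils were the shallowest class, with a median of 2201 and 1313 UMIs per cell, against 11671 and 13640.5 in C1q macrophages. Cells of library 2 also carry 2 antibody tags whose meaning the labels do not give. Of its neutrophils, 1518 of 1553 lay on the side of tag BC3, and of its C1q macrophages, 417 of 426 on the side of BC2. Monocytes (249 on the BC2 side, 45 on the BC3 side) and intermediate cells (192 and 15) also lay mostly on the BC2 side, while resident macrophages (12 and 10) and dendritic cells (17 and 14) were split. Tag and class thus nearly coincide for neutrophils and C1q macrophages, and library 1 has no tags. Nothing in the labels assigns the libraries to different mice. The p-values rest on how far class differences disagree between these libraries, pooled over all classes, and that spread may be technical.

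Summed, the 35 genes held between 0.817% and 1.80% of a class's UMIs. The share was lowest in dendritic cells, at 0.817% (95% Poisson interval 0.802% to 0.831%) in library 1 and 0.926% (0.892% to 0.96%) in library 2. Neutrophils held 1.47% and 1.12%, monocytes 1.71% and 1.69%, intermediate cells 1.80% and 1.68%, resident macrophages 1.68% and 1.36%, and C1q macrophages 1.56% and 1.59%. As means over the libraries these are 0.871% ± 0.077 in dendritic cells, 1.30% ± 0.244 in neutrophils, 1.70% ± 0.00927 in monocytes, 1.74% ± 0.0811 in intermediate cells, 1.52% ± 0.229 in resident macrophages and 1.57% ± 0.0233 in C1q macrophages (SD, n = 2). Dendritic cells lay below every other class in both libraries. The order of the other 5 classes was not the same in both. Within library 2 the share was higher on the BC2 side than on the BC3 side in every class except intermediate cells (1.68% and 1.74%). Monocytes held 1.75% on the BC2 side (249 cells) and 1.15% on the BC3 side (45 cells). Neutrophils held 1.38% (35 cells) and 1.11% (1518 cells). The part of the tag in these shares was not tested.

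**Figure D1:**
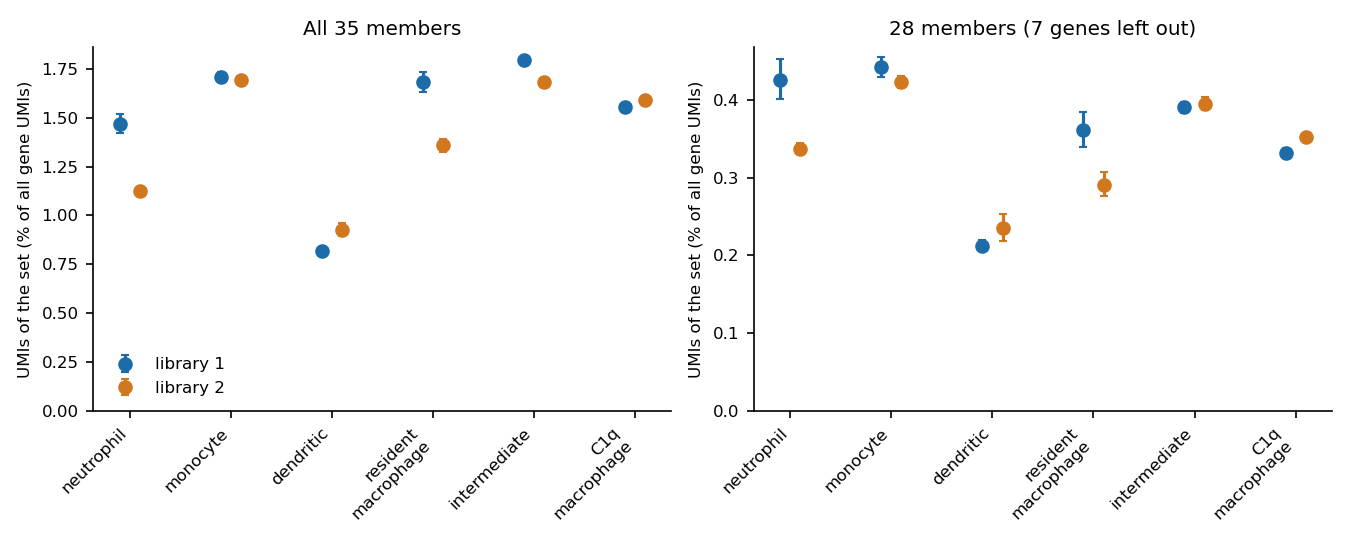
Share of all gene UMIs (percent, axes from 0) taken by all 35 genes (left) and by the 28 that remain without Gapdh, Pkm, Eno1, Aldoa, Ldha, Mif and Pgk1 (right), by class and library; points are library values and bars are 95% Poisson intervals. Dendritic cells are lowest in both panels (0.817% and 0.926% on the left), while neutrophils lie below C1q macrophages on the left in both libraries and, on the right, above them in library 1 only (0.426% against 0.332%; library 2, 0.337% against 0.353%).

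Most of the sum came from 7 genes, Gapdh, Pkm, Eno1, Aldoa, Ldha, Mif and Pgk1, the last of which ranked only 11 to 15 among the 35 by level. They gave 70% to 78.7% of the UMIs of the 35, depending on class and library, and Gapdh alone 16.7% to 31.4%. The neutrophil share is also read against a total that their own markers fill: without the neutrophil markers in the total, it was 1.81% and 1.31%, against 1.56% and 1.59% in C1q macrophages, which turns the order in library 1. Counted per role, glucose transporters took 0.0316% and 0.0329% of UMIs in neutrophils and 0.00773% and 0.00867% in C1q macrophages. The enzymes of the ATP-yielding steps, in contrast, took 0.734% and 0.611% in neutrophils and 0.899% and 0.941% in C1q macrophages. Without the neutrophil markers in the total, those enzymes took 0.904% and 0.714% in neutrophils and 0.901% and 0.942% in C1q macrophages, so their order depends on the scale in library 1. The transporters were higher in neutrophils on both scales, at 0.0389% and 0.0385% without the markers, against 0.00774% and 0.00868% in C1q macrophages.

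Single cells varied within each class. Each cell was thinned to 1000 UMIs, and 356 neutrophils of library 2 were left out as shallower. The middle cell then held 13 and 10 UMIs of the 35 genes in neutrophils, 16 and 16 in monocytes, 7 and 9 in dendritic cells, 16 and 13.5 in resident macrophages, 18 and 17 in intermediate cells and 15 and 16 in C1q macrophages. Without thinning, the medians per 1000 UMIs were 13.1 and 9.52 in neutrophils and 14.9 and 16.0 in C1q macrophages. The variance was 4.46 and 3.63 times the mean in neutrophils and 2.80 and 2.82 times the mean in C1q macrophages. In monocytes it was 4.86 and 3.64 times the mean. The medians are read against totals that include the neutrophil markers, and the order of neutrophils and C1q macrophages depends on that scale in library 1, as for the summed share.

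By CPM, 24 of the genes described here had their highest level in the same class in both libraries. Neutrophils were that class for 9 of them (Slc2a1, Slc2a3, Slc2a6, Hk1, Pfkfb3, Pfkfb4, Bnip3, Egln3, Ankrd37) and monocytes for 6 (Tpi1, Pgam1, Ldhb, Slc16a1, Ero1l, P4ha1). Resident macrophages were highest for 4 (Gpi1, Pfkl, Gapdh, Bnip3l), intermediate cells for 3 (Pgk1, Eno1, Egln1) and dendritic cells for 2 (Pfkp, Ddit4). C1q macrophages were highest in both libraries for none of these 24. Dendritic cells were lowest in both libraries for 13 genes, among them Aldoa, Pkm, Mif and Bnip3. The CPM totals include the neutrophil markers, so the place of neutrophils in these ranks may depend on that scale. No such counts over all genes are given here, so whether they set these genes apart from others was not tested.

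Neutrophils and C1q macrophages were compared to ask which of these genes separate the granulocytes of the effusion from its macrophages. Genes of glucose entry, of the fructose 2,6-bisphosphate switch and of the hypoxia response were higher in neutrophils, while the abundant enzymes between aldolase and lactate did not pass the test. With edgeR's quasi-likelihood test, 14 of the 35 genes passed an adjusted p of 0.05, all of them higher. Over all 9458 genes tested, 55.3% passed in either direction, 27% higher and 28.3% lower. The median log2 fold change of the 35 was 0.35, against -0.16 over all genes. All 35 were tested.

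All 3 glucose transporters were higher in neutrophils. Slc2a3 encodes GLUT3, a high-affinity transporter. It stood at 94.3 and 81.6 CPM in neutrophils (23 and 197 UMIs), against 1.67 and 2.65 CPM in C1q macrophages (6 and 19 UMIs). No other class exceeded 2.7 CPM, and the log2 fold change was 5.74 ± 0.31 (SE, n = 2 libraries, edgeR adjusted p = 6.72e-10). Slc2a1, the widespread transporter GLUT1, stood at 164 and 197 CPM in neutrophils, against 66.1 and 61.1 CPM in C1q macrophages, a log2 fold change of 2.12 ± 0.20. Slc2a6, a lysosomal transporter, stood at 57.4 and 50.5 CPM in neutrophils, against 9.48 and 23.0 CPM in C1q macrophages (2.11 ± 0.31). In each of the 3, both neutrophil values lay above both macrophage values. Such statements, here and below, describe values that the test had used and are no separate support. No share of all genes without overlap is given here.

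Of the hexokinases, Hk1, the mitochondria-bound form of most tissues, was higher in neutrophils, at 53.3 and 53.4 CPM, against 19.2 and 31.6 CPM in C1q macrophages (log2 fold change 1.54 ± 0.23). Hk2, the inducible form, and Hk3, the form typical of myeloid cells, did not pass (0.54 and -0.16). Pfkfb3 and Pfkfb4 make and remove fructose 2,6-bisphosphate, the activator of phosphofructokinase. Pfkfb4 stood at 73.8 and 125 CPM in neutrophils, against 18.1 and 36.2 CPM in C1q macrophages (2.46 ± 0.26), and Pfkfb3 at 41.0 and 53.8 CPM, against 12.6 and 19.1 CPM (2.16 ± 0.23). The neutrophil values were above the macrophage values within each library and did not overlap them. Pfkp, the platelet-type phosphofructokinase, was higher by a smaller step (1.03 ± 0.23), with 65.6 and 102 CPM in neutrophils, against 43.0 and 83.4 CPM in C1q macrophages, and there the values overlapped between libraries.

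In the hypoxia group, Egln3 showed the widest gap. It encodes the prolyl hydroxylase PHD3, itself a HIF target. It stood at 94.3 and 105 CPM in neutrophils, against 14.8 and 7.66 CPM in C1q macrophages, so that the log2 difference was 4.00 ± 0.30 (adjusted p = 1.46e-08, edgeR). Ankrd37, an ankyrin-repeat HIF target, stood at 184 and 153 CPM in neutrophils, against 74.8 and 56.7 CPM in C1q macrophages (1.93 ± 0.19). The gene overlaps Ufsp2 on the opposite strand, which had 2649 UMIs in the tables, and whether the counting used strand is not given in the sources used here. The mitophagy receptors Bnip3l (1.53 ± 0.23) and Bnip3 (1.20 ± 0.18) were higher as well. So were Ddit4, an inhibitor of mTORC1 (1.75 ± 0.26), Slc16a3, the lactate exporter MCT4 (1.11 ± 0.19), and Ero1l, an oxidase of the endoplasmic reticulum (0.91 ± 0.24).

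**Figure D2:**
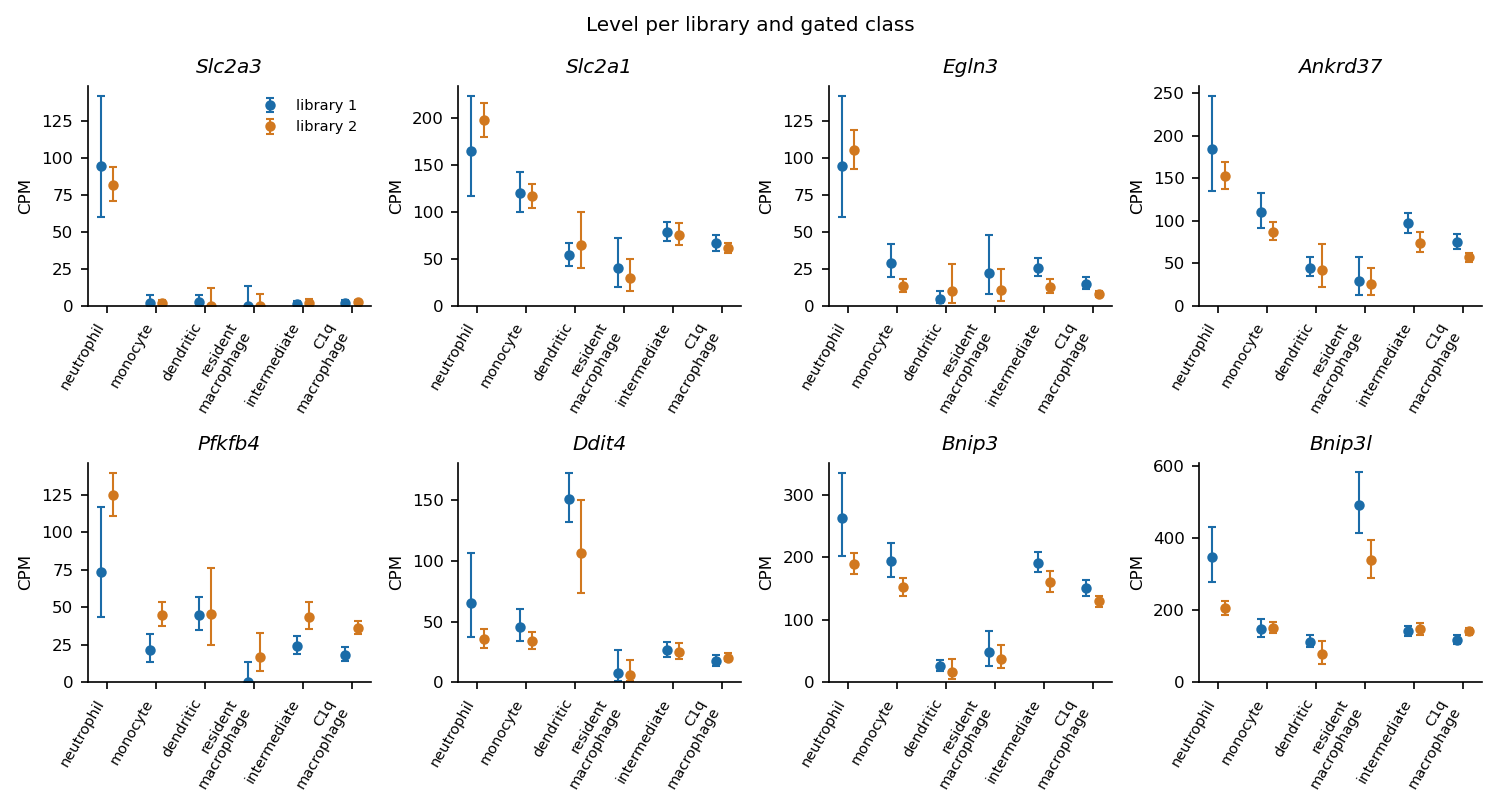
Level in CPM (axes from 0) of 8 genes by class and library; points are library values and bars are 95% Poisson intervals of the count. Slc2a3 reached 94.3 and 81.6 CPM in neutrophils and at most 2.7 CPM elsewhere, Ddit4 was highest in dendritic cells (151 and 107 CPM) and Bnip3l in resident macrophages (493 and 340 CPM).

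The other 21 genes did not pass in this comparison, 12 with a positive and 9 with a negative log2 fold change. They include the abundant Gapdh, with 3242 and 1877 CPM in neutrophils, against 4044 and 3357 CPM in C1q macrophages (log2 fold change -0.07 ± 0.19), and Ldha, with 1074 and 589 CPM, against 1398 and 1346 CPM (-0.27 ± 0.20). These CPM and fold changes look apart because the fit rescales each class by TMM (trimmed mean of M-values) factors, 0.807 and 0.694 in neutrophils and 1.03 and 1.11 in C1q macrophages. With library totals alone, a setting added after seeing the data, the median of all genes moved to -0.78. Calls over all genes were then 1623 higher and 4375 lower, against 2551 and 2677 with TMM. Of the 35 genes, 12 were then higher and 7 lower: Aldoc, Tpi1, Hk3, Ldha, Pgk1, Eno1 and Gapdh, by -0.57 (Gapdh) to -1.41 (Aldoc). Pfkp and Ero1l lost their calls, and the 12 others that had passed kept direction and call. Whether the abundant enzymes were lower in neutrophils thus depends on the scale, while the higher genes named above did not change direction.

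Other values moved with the neutrophil class. Within library 2, only 35 neutrophils lay on the BC2 side. With those cells alone for library 2, the log2 fold change against C1q macrophages was 4.85 for Slc2a3, 2.62 for Egln3 and 1.31 for Slc2a1, and 10 of the 14 calls held. Pfkfb4, Slc16a3, Ero1l and Ddit4 did not pass. Of a list of dissociation stress genes, which rise while cells are prepared, 9 of 12 tested were higher in neutrophils and 0 lower. That is 75%, where 55.3% of all genes passed in either direction and 27% as higher. The list was led by Egr1 (4.55 ± 0.27), Ier2 (2.94 ± 0.32), Junb (2.80 ± 0.23) and Dnajb1 (2.37 ± 0.32). Apoe, a macrophage transcript, stood at 1295 and 463 CPM in neutrophils, against 6390 and 4032 CPM in C1q macrophages, and the dendritic transcript H2-Ab1 at 320 and 241 CPM in neutrophils. The part of tag, stress and free RNA in these results was not tested. Slc2a3 was at 2.7 CPM or less in every other class of both libraries.

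Against monocytes, the other class that the blood supplies, uptake and hypoxia genes were again higher in neutrophils. The test was passed by 15 of the 35 genes, 13 higher and 2 lower, where 47.2% of all genes passed, 23.6% higher and 23.7% lower. Monocytes held Slc2a3 at 1.94 and 1.71 CPM, so that neutrophils were higher by 6.09 ± 0.38 on the log2 scale. Egln3 stood at 94.3 and 105 CPM in neutrophils, against 29.2 and 13.3 CPM in monocytes (3.12 ± 0.31). Pfkfb4 (2.13 ± 0.28), Pfkfb3 (1.85 ± 0.25), Slc2a6 (1.76 ± 0.34), Ankrd37 (1.31 ± 0.19), Bnip3l (1.29 ± 0.23), Slc2a1 (1.20 ± 0.20), Hk1 (1.08 ± 0.24) and Bnip3 (0.87 ± 0.19) were higher too. Both comparisons share the neutrophil samples, so this is no second observation of neutrophils, and likewise all 4 comparisons with C1q macrophages share the C1q macrophage samples.

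Smaller steps were seen for Ddit4 (0.71 ± 0.26), for the cytokine Mif (0.61 ± 0.19) and for Slc16a3 (0.48 ± 0.19). Slc16a3 stood at 537 and 422 CPM in neutrophils, against 529 and 427 CPM in monocytes, and with library totals alone its log2 fold change was -0.01, so its direction rests on the scaling. Ddit4, Mif, Hk1 and Bnip3 lost their calls on that scale, and Mif stood at 753 CPM in neutrophils of library 2, against 810 CPM in monocytes. Without the library block 10 of the 15 calls held, and those of Tpi1, Bnip3, Ddit4, Mif and Slc16a3 did not. Tpi1, triose phosphate isomerase, was lower in neutrophils, at 611 and 304 CPM, against 1012 and 957 CPM in monocytes (-0.72 ± 0.21). Slc16a1, the transporter MCT1, had 1 and 2 UMIs in neutrophils, against 11 and 35 in monocytes, a ratio of 0.097 (95% counting interval 0.0193 to 0.302). The median log2 fold change of the 35 was 0.18, against -0.11 over all genes. With library totals alone, that of all genes was -0.68, with 1347 genes higher and 3911 lower instead of 2228 and 2240. Of the 35, 8 were then higher and 11 lower, the lower ones including Pkm (-0.52), Ldha (-0.85) and Pgk1 (-0.89). With library 2 taken from the BC2 side alone, 4 of the 15 calls held, those of Slc2a3, Slc2a6, Bnip3l and Egln3.

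Monocytes and C1q macrophages, the ends of the monocyte to macrophage range, gave the fewest calls of the 5 comparisons. Only 3 of the 35 genes passed, all higher in monocytes, where 1.77% of all genes passed, 0.952% higher and 0.814% lower. Pfkp stood at 102 and 159 CPM in monocytes, against 43.0 and 83.4 CPM in C1q macrophages (1.09 ± 0.21, edgeR adjusted p = 0.0102). Slc2a1 stood at 120 and 116 CPM in monocytes, against 66.1 and 61.1 CPM in C1q macrophages (0.92 ± 0.19, adjusted p = 0.0164). Ddit4 stood at 45.7 and 33.8 CPM in monocytes, against 17.3 and 20.2 CPM in C1q macrophages (1.04 ± 0.23, adjusted p = 0.0238). In all 3 both monocyte values lay above both macrophage values. The genes had passed on these same values, so this adds no separate support.

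Slc16a1 stood at 10.7 and 12 CPM in monocytes, against 4.18 and 4.18 CPM in C1q macrophages, and did not pass (1.46 ± 0.45, adjusted p = 0.13). Of the 32 genes that did not pass, 25 had a positive log2 fold change, and the median of the 35 was 0.29, against -0.00 over all genes. The calls rest on the gates and on the block: with clusters in place of gates, adjusted p was 0.228 for Slc2a1, 0.102 for Pfkp and 0.102 for Ddit4, and the median of the 35 was -0.05, with 1 call higher (Ldhb) and 1 lower (Mif), so that the tilt towards monocytes was not seen there. Without the library block 0 of the 35 passed. The intermediate cells, which entered no test of their own, lay between these classes for Slc2a1 (78.4 and 75.2 CPM), Pfkp (57.7 and 97.5 CPM) and Ddit4 (26.7 and 24.9 CPM) in both libraries.

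Most glycolytic enzymes were lower in dendritic cells than in C1q macrophages, while Pfkp and Ddit4 were higher. Of the 35 genes, 19 passed against C1q macrophages, 4 higher and 15 lower, where 21.3% of all genes passed, 11.6% higher and 9.71% lower. Their median log2 fold change was -0.76, against -0.02 over all genes. The 15 lower genes take in 11 enzymes from hexokinase to lactate: Hk3, Pfkl, Aldoa, Tpi1, Gapdh, Pgk1, Pgam1, Eno1, Pkm, Ldha and Ldhb. Pkm, pyruvate kinase, stood at 1037 and 1413 CPM in dendritic cells, against 2543 and 3002 CPM in C1q macrophages (-1.13 ± 0.19, edgeR adjusted p = 0.000306). Tpi1 stood at 373 and 360 CPM in dendritic cells, against 808 and 835 CPM in C1q macrophages (-1.10 ± 0.21). For both, neither dendritic value reached the macrophage range.

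Most other enzymes of the pathway were lower as well. The log2 fold changes were -1.10 ± 0.25 for Pgk1, -0.90 ± 0.18 for Eno1, -0.84 ± 0.20 for Aldoa, -0.79 ± 0.25 for Pfkl, -0.76 ± 0.20 for Ldha, -0.70 ± 0.19 for Gapdh and -0.56 ± 0.19 for Pgam1. Slc16a3 was lower too (-0.90 ± 0.20), and Slc16a1, with 2 and 0 UMIs in dendritic cells, did not pass (-1.59 ± 0.99, adjusted p = 0.289). Hk3 fell to 3.38 and 16.2 CPM in dendritic cells, against 43.5 and 147 CPM in C1q macrophages (-3.36 ± 0.37, adjusted p = 3.04e-06). Ldhb, the minor lactate dehydrogenase subunit here, had 1 and 0 UMIs in dendritic cells, against 23 and 53 in C1q macrophages, a ratio of 0.0793 (95% counting interval 0.00198 to 0.455).

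Among hypoxia genes, Bnip3 fell to 25.7 and 16.2 CPM in dendritic cells, against 151 and 129 CPM in C1q macrophages (-2.52 ± 0.24, adjusted p = 8.15e-07). Ero1l (-1.07 ± 0.30) and Mif (-0.95 ± 0.19) were lower too. Ddit4 went the other way, at 151 and 107 CPM in dendritic cells, against 17.3 and 20.2 CPM in C1q macrophages (2.87 ± 0.23, adjusted p = 1.1e-07). Pfkp stood at 172 and 198 CPM in dendritic cells, against 43.0 and 83.4 CPM in C1q macrophages (1.74 ± 0.22). Slc2a6 (1.59 ± 0.34) and Pfkfb4 (1.08 ± 0.30) were higher as well, with larger differences in library 1 (TMM-scaled log2 ratios 2.37 and 1.47) than in library 2 (0.38 and 0.33). Pfkm, with 1 and 2 UMIs in dendritic cells, against 1 and 8 in C1q macrophages, did not pass (1.65 ± 1.30).

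Library 2 gave 31 dendritic cells, so these values lean on library 1. Cycling markers stood at 97 and 541 CPM in dendritic cells, against 85 and 41 CPM in C1q macrophages, and their part in the result was not tested. Of the 19 calls, 8 held without the library block: those of Pfkp, Ddit4, Tpi1, Eno1, Pkm, Ldhb, Slc16a3 and Bnip3.

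Resident macrophages, the large macrophages that live in the pleural cavity, differed from C1q macrophages mainly in hypoxia genes, and of the enzymes between hexokinase and lactate only Tpi1 passed. Of the 35 genes, 7 passed, 1 higher and 6 lower, where 11% of all genes passed, 6.97% higher and 4.07% lower. The median was -0.29 against -0.08 over all genes, and also -0.29 without Slc2a3, which had 0 UMIs in resident macrophages. Bnip3l stood at 493 and 340 CPM in resident macrophages, against 118 and 141 CPM in C1q macrophages (1.61 ± 0.23, edgeR adjusted p = 0.000102). Its relative Bnip3 stood at 47.5 and 37.8 CPM in resident macrophages, against 151 and 129 CPM in C1q macrophages (-1.76 ± 0.25, adjusted p = 0.000102). The receptors thus differed in opposite directions, with no overlap between classes for either.

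Ankrd37 fell to 29.2 and 25.2 CPM in resident macrophages, against 74.8 and 56.7 CPM in C1q macrophages (-1.29 ± 0.29). Slc2a1 fell to 40.2 and 29.4 CPM, against 66.1 and 61.1 CPM (-0.95 ± 0.30, adjusted p = 0.0491). Tpi1 (-0.84 ± 0.21) and Mif (-0.74 ± 0.19) were lower. Ndrg1, a hypoxia and stress gene, had 2 and 3 UMIs in resident macrophages, against 59 and 241 in C1q macrophages, a ratio of 0.239 (95% counting interval 0.0771 to 0.564). Pfkfb4, with 0 and 8 UMIs, did not pass (-1.49 ± 0.54, adjusted p = 0.092), nor did the muscle form Pfkm, with 3 and 1 UMIs (2.72 ± 1.22). Gapdh, at 5277 and 3557 CPM in resident macrophages, against 4044 and 3357 CPM in C1q macrophages, did not pass either.

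The class holds 27 and 22 cells. Cycling markers stood at 585 and 378 CPM in resident macrophages, against 85 and 41 CPM in C1q macrophages, and their part was not tested. Without the library block 3 of the 7 calls held, those of Bnip3l, Bnip3 and Ankrd37. The calls of Slc2a1 and Ndrg1 were also lost with DESeq2, another count model, and with RLE size factors, another scaling. That of Slc2a1 was lost with stricter gates, and those of Tpi1, Ndrg1 and Mif with clusters in place of gates.

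**Figure D3:**
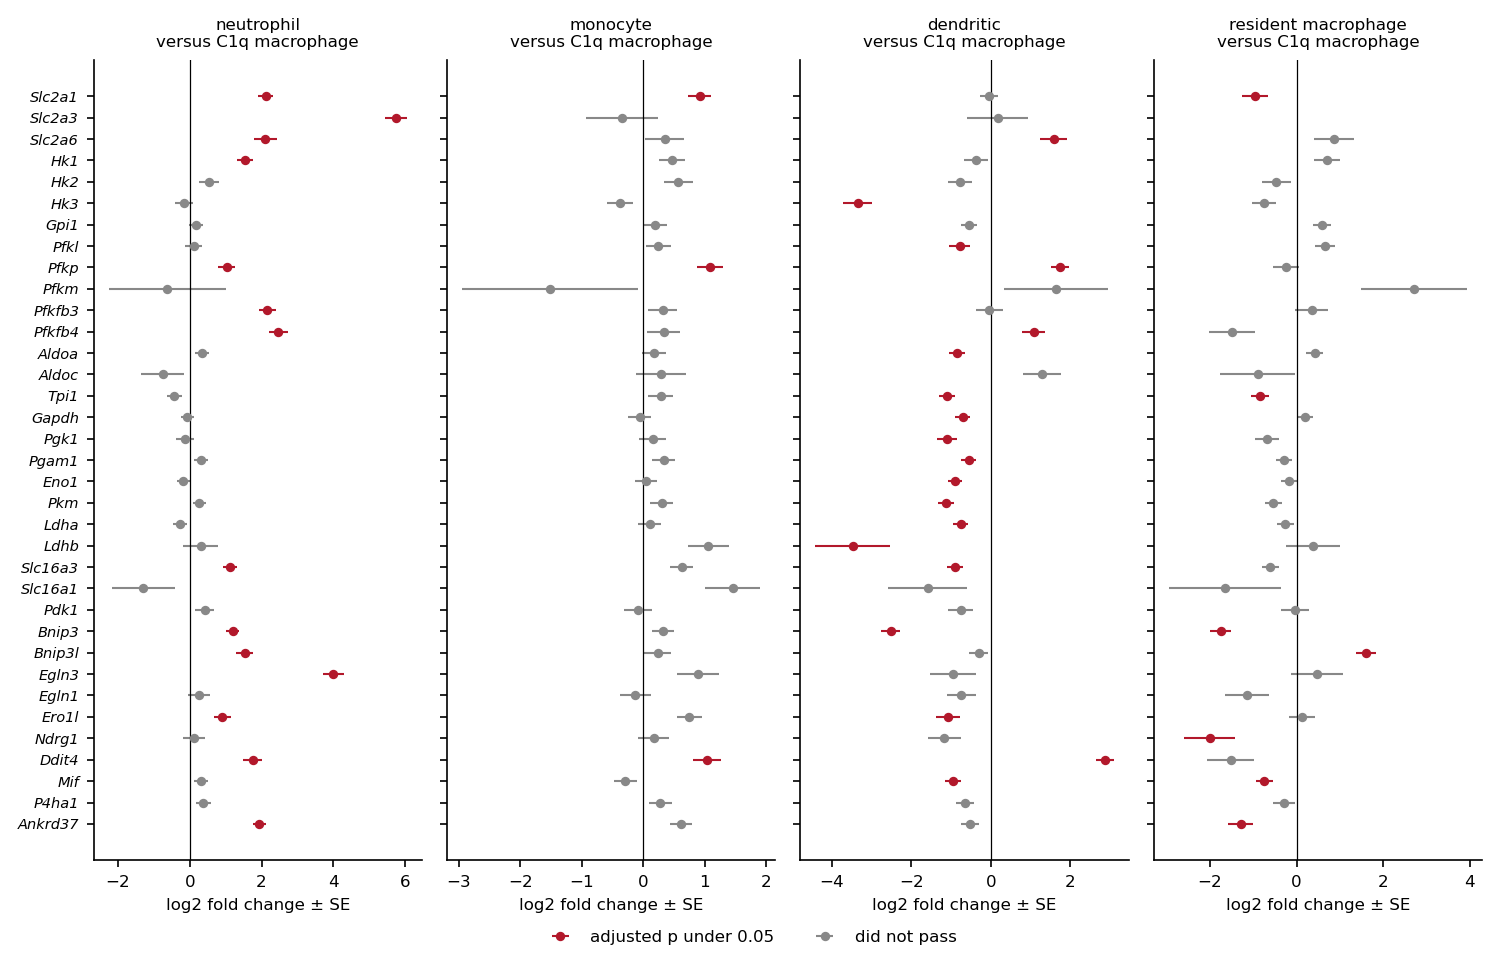
Log2 fold change (points) with its SE (bars) of the 35 genes in each class against C1q macrophages, from edgeR with library as a block; red marks an adjusted p under 0.05, and scales differ between panels. In neutrophils 14 genes passed, all higher, led by Slc2a3 (5.74) and Egln3 (4.00); in dendritic cells 15 passed as lower and 4 as higher; Slc2a3 is left out for resident macrophages, which had 0 UMIs of it.

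Isoform shares do not depend on the scaling between classes. The library protocol counts molecules at their 3' ends, so UMIs carry no term for transcript length. Of the 3 glucose transporters, Slc2a3 made up 29.9% (23 of 77 UMIs, exact binomial interval 20.0% to 41.4%) and 24.8% (197 of 795 UMIs) in neutrophils, and at most 3.05% in any other class. Slc2a1 made up 85.6% and 70.5% in C1q macrophages. In resident macrophages the lysosomal Slc2a6 took 42.1% and 53.3%, of 19 and 30 UMIs.

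Phosphofructokinase shifted between the liver-type Pfkl and Pfkp. Pfkp made up 84.1% (254 of 302) and 67.8% (61 of 90) in dendritic cells and 52.2% and 57.5% in monocytes. In neutrophils it made up 43.2% and 61.7%, in resident macrophages 25.5% and 27.2%, and in C1q macrophages 36.2% and 43.9%. Dendritic cells lay above all other classes and resident macrophages below them in both libraries, although in library 2 the binomial interval of dendritic cells overlapped those of neutrophils and monocytes, and in library 1 that of resident macrophages overlapped those of neutrophils, intermediate cells and C1q macrophages. Bnip3 made up 8.8% (13 of 148) and 10.0% (18 of 180) of the Bnip3 and Bnip3l pair in resident macrophages, 18.5% and 17.2% in dendritic cells, 43.0% and 48.0% in neutrophils and 56.1% and 47.8% in C1q macrophages.

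Egln3 made up 88.5% (23 of 26) and 88.2% (254 of 288) of Egln1 and Egln3 in neutrophils, against 51.5% and 27.9% in C1q macrophages. Egln1, the main oxygen sensor PHD2, was itself between 7.31 and 20.0 CPM in every class. Some families were mostly 1 form in every class: Ldha held at least 98.6% of lactate dehydrogenase UMIs, Aldoa at least 97.0% of aldolase and Slc16a3 at least 97.3% of monocarboxylate transporter UMIs. Hexokinase shares differed by library and by class. Hk3 made up 38.9% and 58.5% in C1q macrophages and 17.9% and 49.9% in monocytes. Its share was lowest in dendritic cells in both libraries, at 7.1% and 21.7% of 70 and 23 UMIs, where Hk2 made up 58.6% and 56.5%. Hk1 made up 28.9% and 29.1% in neutrophils, against 17.2% and 12.6% in C1q macrophages.

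**Figure D4:**
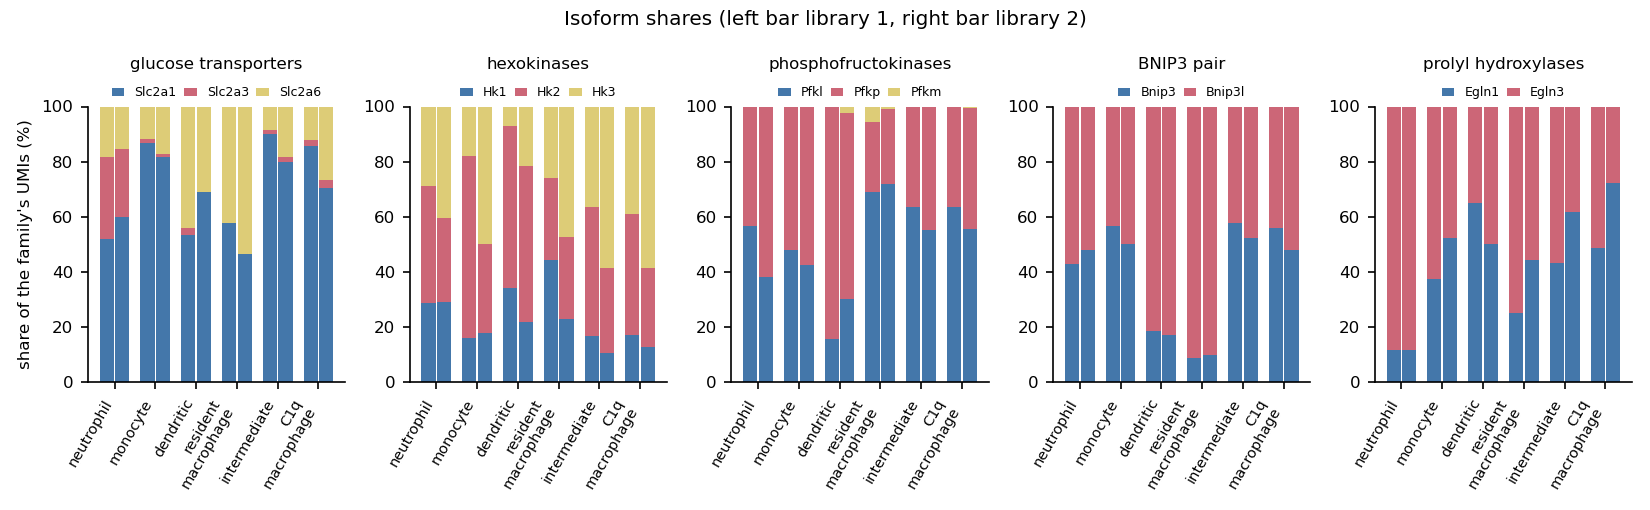
Share of each isoform (percent of the family's UMIs, axes 0 to 100) by class, with library 1 as the left and library 2 as the right bar of each pair. Slc2a3 is visible in neutrophils (29.9% and 24.8%), Pfkp dominates in dendritic cells (84.1% and 67.8%), Bnip3l in resident macrophages and dendritic cells, and Egln3 in neutrophils (88.5% and 88.2%).

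Pgk1 set the libraries apart more than the classes. Phosphoglycerate kinase 1 stood at 49.2 CPM in neutrophils of library 1 and at 198 CPM in those of library 2, and at 50.5 and 386 CPM in C1q macrophages. It was 3.46 to 11.5 times higher in library 2 in all 6 classes, the single one of the 35 with a shift over 2-fold in every class. Over all genes, 107 showed such a shift upwards and 42 downwards. Hk3 was 1.34 to 4.79 times higher in library 2. Tests with library as a block compare classes within a library. The median shift of the 35 was small, between -0.31 (resident macrophages) and 0.24 (C1q macrophages) on the log2 scale.

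Genes of the surrounding pathways were counted in lists. In neutrophils against C1q macrophages, 55.3% of all genes passed. Of tested genes, 57.1% passed for other HIF targets, 42.9% for HIF regulators and 42.9% for the pentose phosphate pathway. Pyruvate entry stood at 25.0% and glycogen at 60%, so none of these lists lay far above all genes. The dissociation stress list stood higher, at 75%. By direction, 27% of all genes were higher and 28.3% lower. All called genes of other HIF targets and of dissociation stress were higher, so their 57.1% and 75% stand against 27%. No test of a list was made. Of other HIF targets, 8 of 14 tested were higher in neutrophils than in C1q macrophages and 0 lower, among them Bhlhe40 (2.38 ± 0.30), Cited2 (2.31 ± 0.30), Mxi1 (2.16 ± 0.29) and the lipid droplet gene Hilpda (2.03 ± 0.26). Hilpda stood at 271 and 123 CPM in neutrophils, against 68.3 and 54.3 CPM in C1q macrophages. Against monocytes, 7 of 14 were higher and 0 lower, which is 50%. Of all genes, 47.2% passed in either direction and 23.6% as higher. Cited2 (1.85 ± 0.30), Hilpda (1.73 ± 0.27), the demethylase Kdm3a (1.66 ± 0.32) and Mxi1 (1.58 ± 0.31) were in the lead. Bhlhe40 was higher in dendritic cells (3.94 ± 0.26) and in resident macrophages (3.66 ± 0.28) as well, so it follows no single class.

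In dendritic cells 1 of 14 HIF targets was higher and 4 lower than in C1q macrophages. The lower ones include Plin2, a lipid droplet coat protein (-2.32 ± 0.29), Vegfa, with 2 and 1 UMIs (-2.13 ± 0.71), and Pgm2 (-1.24 ± 0.33). In resident macrophages 3 were higher and 1 lower: the collagen hydroxylase P4ha2 (5.06 ± 0.66, 11 and 10 UMIs against 4 and 4), Gbe1, the glycogen branching enzyme (3.52 ± 0.24), Bhlhe40 and, lower, Fam162a (-1.32 ± 0.24). In monocytes 0 of 14 passed.

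Hif1a, the oxygen-regulated HIF subunit, stood at 213 and 195 CPM in neutrophils, against 192 and 321 CPM in C1q macrophages, and did not pass (0.19 ± 0.20). It was lower in dendritic cells (-0.90 ± 0.21) and in resident macrophages, at 65.8 and 88.1 CPM (-1.75 ± 0.24). It was the single one of 7 tested HIF regulators that passed in either class, and 0 of 7 passed in monocytes. In neutrophils Siah2, a ligase that acts on prolyl hydroxylases, was lower (-1.21 ± 0.33), and the HIF partner Arnt (0.98 ± 0.24) and Vhl (0.83 ± 0.29) were higher than in C1q macrophages. Against monocytes Siah2 (-1.78 ± 0.33) and Arnt (0.72 ± 0.25) passed.

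Among glycogen genes, Pygl and Gyg were higher in neutrophils and resident macrophages. Pygl, glycogen phosphorylase, stood at 225 and 324 CPM in neutrophils and 376 and 357 CPM in resident macrophages, against 40.2 and 57.2 CPM in C1q macrophages (3.08 ± 0.22 and 2.87 ± 0.23). Gyg, the glycogen primer, was higher in neutrophils (1.68 ± 0.23), resident macrophages (2.13 ± 0.23), dendritic cells (1.09 ± 0.24) and monocytes (1.15 ± 0.21) than in C1q macrophages. Of the 5 genes, 2 were higher and 1 lower in neutrophils (Pygb, -1.93 ± 0.65), where 55.3% of all genes passed, and 2 were higher in resident macrophages, where 11% passed. In dendritic cells, where 21.3% of all genes passed, 1 was higher and 2 lower, Ugp2 (-1.03 ± 0.24) and Pygl (-0.91 ± 0.29), and 1 was higher in monocytes. Against monocytes, neutrophils were higher in Pygl alone (2.21 ± 0.23).

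The pentose phosphate pathway branches off at glucose 6-phosphate. Against C1q macrophages, 1 of its 7 genes was higher and 2 lower in neutrophils, Taldo1 (1.44 ± 0.21), Pgls (-1.36 ± 0.22) and Tkt (-0.78 ± 0.21), and against monocytes the same 3 passed. In dendritic cells Pgd (-1.50 ± 0.23) and G6pdx (-0.99 ± 0.26) were lower, and in resident macrophages Rpia (1.65 ± 0.29), Taldo1 (1.39 ± 0.21) and Rpe (1.06 ± 0.29) were higher. In monocytes 0 of 7 passed. Of 8 tested genes of pyruvate entry to mitochondria, Pdhx (-1.27 ± 0.42) and Dlat (-0.91 ± 0.32) were lower in neutrophils. In dendritic cells Mpc1 (1.04 ± 0.19) and Pdk3 (0.85 ± 0.29) were higher and Pdha1 (-0.72 ± 0.23) lower, and in the other 3 comparisons 0 passed.

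Of 20 further glycolysis genes 6 were tested. Eno3, the muscle enolase, was higher in dendritic cells, at 31.8 and 84.3 CPM, against 3.07 and 4.46 CPM in C1q macrophages (3.76 ± 0.46), where Eno1 was lower. Slc2a8 was lower in neutrophils (-2.57 ± 0.76) and higher in resident macrophages (1.59 ± 0.45), and 0 passed in the other comparisons. Of 12 dissociation stress genes, Fos (-1.75 ± 0.33), Atf3 (-1.61 ± 0.49) and Dusp1 (-1.001 ± 0.26) were lower in dendritic cells than in C1q macrophages, and 0 passed in monocytes or resident macrophages. Against monocytes 9 were higher in neutrophils and 1 lower, which is 83.3%, where 47.2% of all genes passed. Those with the largest differences were Egr1 (4.83 ± 0.30), Ier2 (2.50 ± 0.32), Junb (2.40 ± 0.23) and Hspa1a (2.30 ± 0.69).

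In all, 7 of the 35 genes passed in none of the 5 comparisons: Hk2, Gpi1, Pfkm, Aldoc, Pdk1, Egln1 and P4ha1. No such count over all genes is given here, so whether 7 is few or many was not tested. Gpi1, which turns glucose 6-phosphate into fructose 6-phosphate, stood at 965 and 669 CPM in resident macrophages, against 507 and 537 CPM in C1q macrophages (0.59 on the log2 scale). Pdk1, which holds back pyruvate entry to mitochondria, lay between 17.6 and 46.1 CPM in all classes of both libraries, and P4ha1, a collagen hydroxylase subunit, between 35.2 and 77.6 CPM. Aldoc, the brain-type aldolase, stood at 25.0 CPM in dendritic cells of library 1 and 6.48 CPM in those of library 2. Pfkm had 8 UMIs at most in any class of a library.

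Some of the 35 share sequence or position with other genes, which the authors' counting could split. Eno1 has the near-identical Eno1b, which held 498 UMIs against 14352 of Eno1 in C1q macrophages of library 2. Aldoa, Gapdh, Pgk1, Pgam1, Ldha and Mif have 2 listed pseudogene copies each that carry the gene's own symbol, and Bnip3l 1. Copies listed under other names were not counted, so these numbers are lower limits for all 35 genes. Tpi1 overlaps Spsb2 (1159 UMIs), Pfkm overlaps Senp1 (362), Gapdh overlaps Iffo1 (239) and Pfkp overlaps Pitrm1 (191), each on the opposite strand.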

How the data were processed

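Droplet (10x) 3' libraries of sorted pleural effusion cells were deposited as UMI counts per gene and barcode. Per the submitters' processing notes they were made with Cell Ranger 3.0.1 on mm10, and the barcodes were already limited to called cells. No annotation release or strand setting is given in the sources used here. Gene identifiers and barcodes in the deposited files carry no score or measurement.

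Cells under 300 genes or above 10% mitochondrial UMIs (25 and 61) and called doublets (10 and 65, from simulated pairs) were left out, which left 1106 and 2782 cells. Classes were gated on marker UMIs per 10000: neutrophil list at least 150 with C1q genes under 20, and C1q macrophage, C1q genes at least 20. The dendritic, monocyte and intermediate gates asked for C1q genes under 10, and the resident gate set no limit on C1q genes. The resident gate asked for 20 and 3 markers, the dendritic gate for 10 and 2 markers, the monocyte gate for 40 with macrophage markers under 50, and the intermediate gate for 20 monocyte and 50 macrophage. Cells within 1.5-fold of a cut numbered 4 and 52 for neutrophils and 32 and 77 for C1q macrophages.

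UMIs were summed per library and class and fitted with edgeR 4.0.16 (R 4.3.3; quasi-likelihood, TMM, filterByExpr, library as a block, all 6 classes in 1 fit), with Benjamini-Hochberg adjustment over 9458 genes and a threshold of 0.05. The block stands for the library from which every class was drawn, as the labels give it. SE is the log2 fold change over the root of F. DESeq2 1.42.0 was an alternative. Python 3.11.15, numpy 2.4.6, scipy 1.17.1, pandas 2.3.3, scikit-learn 1.9.0 and leidenalg 0.10.2 were used. The test was checked on simulated data. Intervals cover counting error only.

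Members that passed are all named, with uncalled ones past 1 in size on the log2 scale in both libraries, and up to 4 called genes of each other list. Members and lists were chosen with earlier results of these data known.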

Additional observations from a re-analysis of the deposited data

Results flagged for a closer look

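Library 2 holds 2 antibody tags that the comparisons did not use as a measurement and that the labels do not describe. Tag BC2 had 10189333 counts (median 1045.5 per cell) and tag BC3 had 4958791 counts (median 1816.5 per cell), over 2782 cells. They drew attention as a signal outside the gene counts.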

How the results depend on the processing

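Over 554 tests of a named gene under an alternative, 474 kept direction and call, 74 lost the call, 5 gained it and 1 reversed: Slc16a3 in neutrophils against monocytes, at -0.013 with library totals alone (adjusted p = 0.966, edgeR; chosen after seeing the data). All 126 values from a single library kept their sign, which the choice of genes partly fixed. Uncalled genes were named only where both libraries agreed in direction, and called genes had passed on both libraries together. Of these values, 29 moved by more than the replicate spread. Among them were Slc2a6, Hk1, Pfkfb3 and Pfkfb4 in neutrophils and Hk3, Gapdh and Bnip3 in dendritic cells. The spread is the SD of the 2 library values, so a fitted value midway between them could not move. A move thus marks only a fit away from that middle, and this count is no measure of how firm the results are. Without the replicate block, genes called fell to 2717 in neutrophils against monocytes, 3 in monocytes, 771 in dendritic cells and 451 in resident macrophages, and members called to 0 in monocytes (7 at an unadjusted p under 0.05), 8 in dendritic cells and 3 in resident macrophages; the cause was not tested. On the BC2 side, genes called were 1097 in neutrophils against C1q macrophages and 578 against monocytes, with 4 members in the second, from 35 neutrophils in library 2. With at least 2000 UMIs per cell, neutrophils against monocytes gave 2864 genes and monocytes 5 members. Monocytes against C1q macrophages gave 394 genes and 5 members with no filter, 436 genes with stricter gates and 259 with clusters. The summed share of monocytes was 1.65% with stricter gates, 1.25% with clusters and 1.73% on the BC2 side, that of intermediate cells 1.85% with stricter gates and that of C1q macrophages 1.62% with clusters. Without Gapdh, Pkm, Eno1, Aldoa, Ldha, Mif and Pgk1 it was 0.382% in neutrophils, 0.433% in monocytes, 0.224% in dendritic cells, 0.326% in resident macrophages, 0.393% in intermediate cells and 0.342% in C1q macrophages. The Egln3 share in neutrophils was 89.9% with stricter gates and 89.1% with at least 2000 UMIs. Dendritic cells gave too few cells for stricter gates, clusters or the BC2 side, resident macrophages for the BC2 side. No count of calls was made with 1 library left out. Depth limits members with few UMIs, such as Pfkm, Slc16a1 and Ldhb.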
